A study of Homo sapiens with 9 samples.

Results

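The SOX transcription factors described here are SOX2, SOX4, SOX5, SOX8, SOX9, SOX10, SOX11, SOX12 and SOX13. They are 9 of the 19775 genes that could be named on the arrays, and every probe set annotated to one of them was taken, which gave 27 of 54675 probe sets. RNA of SK-N-AS cells, a line derived from a human neuroblastoma, was read on 9 Affymetrix expression arrays. One series received RE-EX1, a construct for the full-length transcription factor NRSF, and 1 received HZ4, a construct for a truncated NRSF. The third series was untreated, and each series was read at 0, 24 and 48 h with 1 array per series and hour. The series description names triplicates and batches, but the labels mark neither, so no batch could be examined. The labels do not state the promoter of the constructs, the share of cells that took them up or any pooling of cultures, and all groups are cultures of 1 cell line.

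SOX proteins bind DNA through an HMG box and bend it, and they act mostly with partner factors. SOX2, of the SOXB1 group, holds neural progenitors undifferentiated. SOX4, SOX11 and SOX12 form the SOXC group, which activates genes of immature neurons, and in mice SOX4 and SOX11 are needed for the growth of sympathetic ganglia, the tissue from which neuroblastoma arises. SOX5 and SOX13, of the SOXD group, have no activation domain of their own and modulate other SOX factors. SOX8, SOX9 and SOX10 form the SOXE group, which acts in the neural crest, with SOX9 also driving cartilage and SOX10 driving Schwann cells and melanocytes. NRSF, encoded by REST, represses neuronal genes.

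The values are signals, 1 per probe set and array, which the authors had scaled so that all arrays had the same trimmed mean. Different probe sets bind with different strength, so signals were compared between arrays and not between genes. A floor was set at a signal of 8.266, the 25th percentile of all values, and differences are on the log2 scale above it, where 1 unit is 2-fold. A probe set was tested when its mean log2 signal was above 4.20. This held for 19 of the 27, from 7 of the 9 genes: 6 of SOX4, 3 each of SOX11 and SOX13, 2 each of SOX5, SOX9 and SOX12, and 1 of SOX2. Probe sets of 1 gene read the same RNA and are not replicates. Of the 27, 10 have the suffix s_at, which marks probes that may match more than 1 transcript, among them all 3 of SOX11 and both of SOX9.

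The array of truncated NRSF at 24 h stood apart. Its median correlation with the other arrays across tested probe sets was 0.884, against 0.897 to 0.912 for the others, and its dimmest 20% of probe sets read 0.51 log2 above their own mean, against 0.01 to 0.31. REST on its brightest probe set read 171.1, 268.3 and 273.5 with full-length NRSF at 0, 24 and 48 h, 162, 323.1 and 341.6 with the truncated form, and 177.2, 444.7 and 260.3 in untreated cells. At 24 h it was highest in untreated cells. In the limma time test described below it rose by 0.99 ± 0.22 log2 at 24 h (adjusted p = 0.0052) and by 0.77 ± 0.22 at 48 h (0.045). It checks no construct, since no source states whether its probes lie in them. Of 12 sympathoadrenal markers 8 could be tested, with signals of 72.16 to 145.9 for PHOX2A and 1346 to 1912 for GATA3. TH and DBH, the enzyme genes of catecholamine synthesis, were too dim. All 11 measured mesenchymal markers were tested, with signals of 1811 to 5612 for PRRX1 and 185.1 to 381.7 for NOTCH2. These ranges are not compared between genes. None of 6 Schwann and glial markers passed.

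Promoters are shown for SOX4, which fell with time, and SOX12, which was not called, as the SOXC genes with a reference entry. Their changes were not tested against each other. RefSeq promoter entries of GRCh38.p14 (250 bases before and 50 after the start) were matched for 5 of the 9 genes, SOX2, SOX4, SOX5, SOX12 and SOX13. Capitals mark matches on either strand to CCAAT, the NF-Y site, and to GGGCGG, the GC box bound by SP1. SOX4 is read from chr6:21593501-21593800 and SOX12 from chr20:325302-325601, both on the plus strand.
SOX4: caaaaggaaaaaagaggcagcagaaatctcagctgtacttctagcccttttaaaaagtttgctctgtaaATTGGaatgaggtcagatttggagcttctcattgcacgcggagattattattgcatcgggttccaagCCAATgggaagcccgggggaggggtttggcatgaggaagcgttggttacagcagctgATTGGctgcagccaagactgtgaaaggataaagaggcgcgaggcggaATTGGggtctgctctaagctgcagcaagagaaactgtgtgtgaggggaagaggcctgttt
SOX12: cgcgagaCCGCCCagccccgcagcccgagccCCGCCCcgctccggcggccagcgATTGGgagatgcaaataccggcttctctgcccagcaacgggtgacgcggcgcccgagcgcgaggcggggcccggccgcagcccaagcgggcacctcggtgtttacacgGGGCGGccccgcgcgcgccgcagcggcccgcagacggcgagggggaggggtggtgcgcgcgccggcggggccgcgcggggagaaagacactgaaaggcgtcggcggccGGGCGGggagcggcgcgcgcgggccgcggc
The SOX4 window held 4 matches to CCAAT and 0 to GGGCGG, with 49.3% G and C. The SOX12 window held 1 and 4, with 80.3%. Among 35116 promoters of the same length, 34.6% held CCAAT and 45% held GGGCGG. Other motifs searched were the left and right parts of the NRSF site, of which the left is TTCAGCACC (0.376% and 0.259% of promoters), the SOX sites AACAATG (3.33%) and AACAAAG (5.2%), the AP-1 site TGANTCA (7.71%) and the TATA box TATAAA (11.5%). In the 5 SOX promoters the only match to any of these was 1 of AACAATG in SOX5.

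SOX11, the SOXC factor of neuroblasts, fell with time, and its signal was lower at each later hour in every series. Its brightest probe set, 204913_s_at, read 1573, 671 and 333.7 with full-length NRSF at 0, 24 and 48 h. With truncated NRSF it read 1163, 471 and 301.2, and without a construct 1132, 427.9 and 352.8. Every 24 h array lay below every 0 h array, and every 48 h array below every 24 h array. On 204914_s_at the full-length series read 1151, 443.9 and 313.3, the truncated series 1135, 421.6 and 402.6, and the untreated series 830.4, 439.3 and 298.3. On 204915_s_at they read 324.6, 189 and 119.5, then 330, 206.3 and 79.75, and, untreated, 282, 139.1 and 118.9. All 3 probe sets showed the same order of hours with no overlap. Of all probe sets tested, 13.9% were lower at 24 h than at 0 h without overlap, and 12.9% at 48 h. The share lower at 48 h than at 24 h was not counted.

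**Figure D1:**
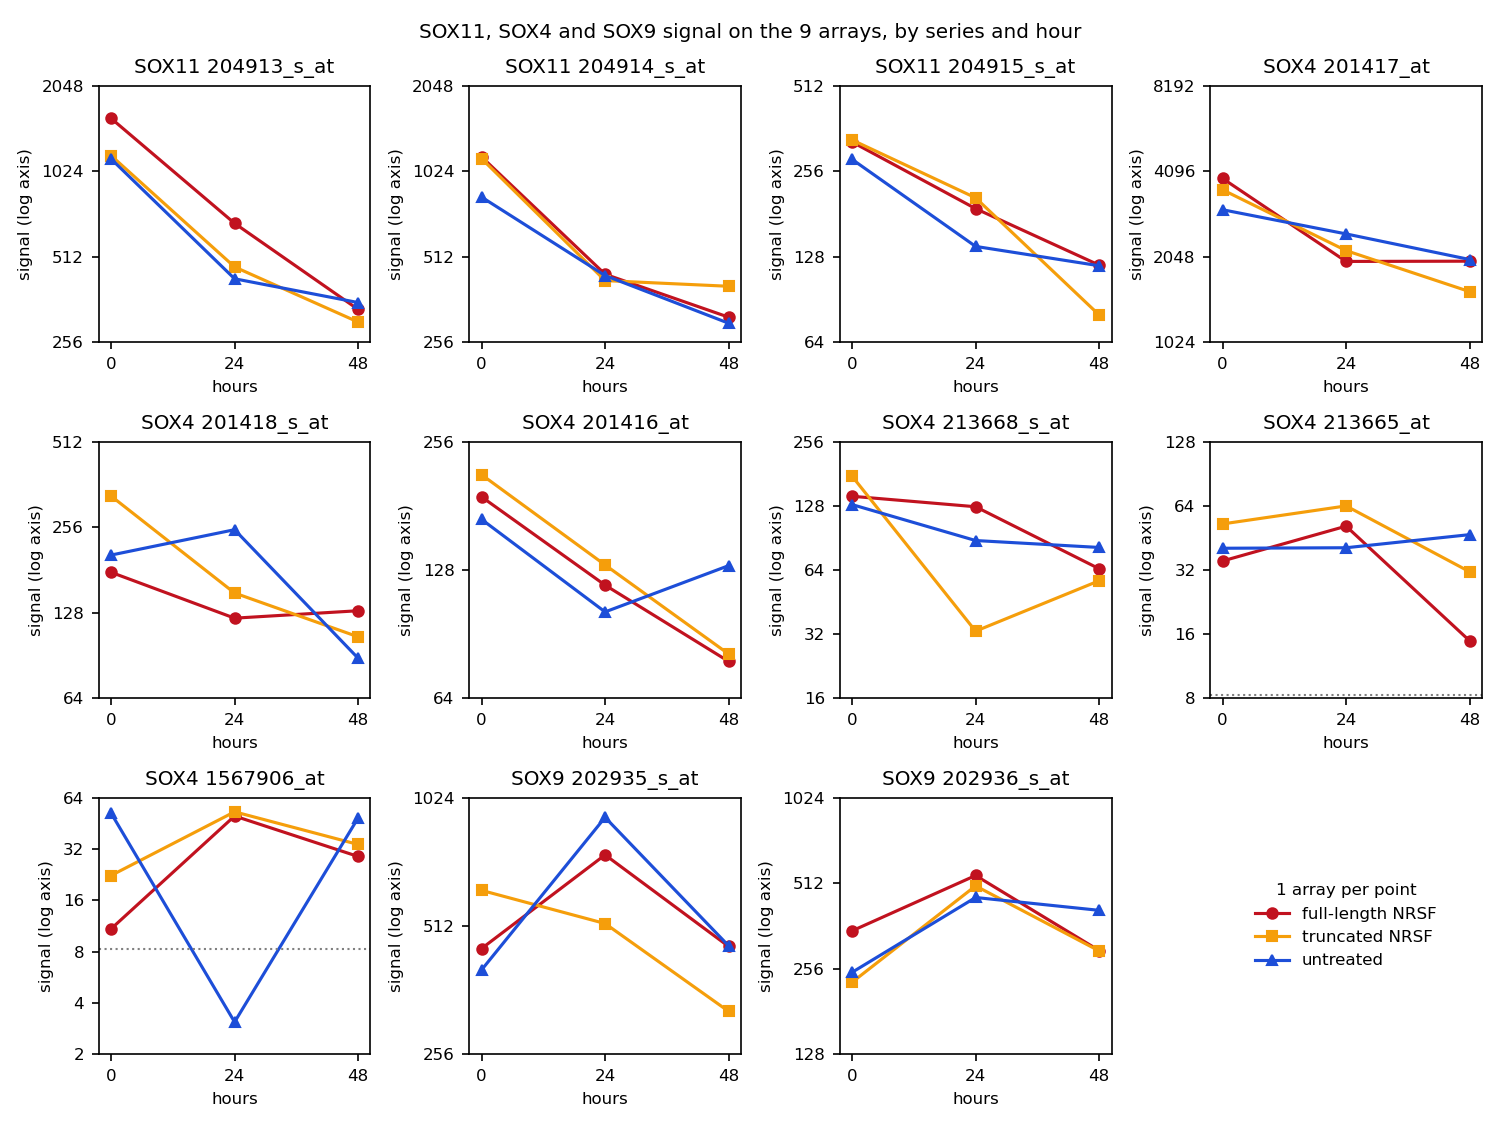
Signal of the SOX11, SOX4 and SOX9 probe sets (vertical log axis, arbitrary units) against hours, with 1 line per series and 1 array per point. The dotted line is the floor of 8.266. All SOX11 lines run downward, 3 at each hour without overlap, and both SOX9 probe sets peak at 24 h except with truncated NRSF on 202935_s_at.

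The time course was tested with limma over the 3 series (n = 3 arrays per hour), with the series as a block, adjusted p-values over all 32752 probe sets tested and a threshold of 0.05. The 3 readings of an hour come from differently treated cells, so no p-value measures the spread between replicate cultures. Limma also drew each probe set's variance toward that of probe sets of like signal. The tests thus used 19.3 degrees of freedom, where the series alone leave 4. The p-values and standard errors therefore rest in large part on that shared variance. SOX11 fell at 24 h by 1.31 ± 0.17 on the log2 scale on 204913_s_at (standard error; adjusted p = 3.7e-05), which is 2.483-fold, by 1.24 ± 0.17 on 204914_s_at (8e-05) and by 0.83 ± 0.25 on 204915_s_at (0.039). At 48 h it fell by 1.96 ± 0.17 (adjusted p = 1.8e-06), or 3.879-fold, by 1.62 ± 0.17 (1.6e-05) and by 1.58 ± 0.25 (0.00087). It was lower in 3 of 3 series at both hours on each probe set. Between 24 and 48 h 204913_s_at fell by a further 0.64 ± 0.17 (adjusted p = 0.049). The other two differed by −0.38 ± 0.17 (0.30) and −0.75 ± 0.25 (0.14) and did not pass. The 24 h call of 204915_s_at also ended without the full-length (adjusted p = 0.17), truncated (0.066) or untreated series (0.18), and the later step of 204913_s_at held in 3 of 12 alternatives, none of which left out an array or a series.

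By series, SOX11 on 204913_s_at differed from its own 0 h array by −1.23 and −2.24 at 24 and 48 h with full-length NRSF. Truncated NRSF gave −1.30 and −1.95, untreated cells −1.40 and −1.68. The 0 h arrays themselves differed by 0.47 between the full-length and untreated series, 0.04 between the truncated and untreated series and 0.44 between the full-length and truncated series. The fall in each series was thus larger than any difference between 0 h arrays.

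SOX4, the SOXC factor with the widest range of tissues, also fell. Its brightest probe set, 201417_at, read 3864, 1970 and 1974 with full-length NRSF at 0, 24 and 48 h, 3524, 2151 and 1542 with the truncated form, and 2997, 2463 and 2001 without a construct. The 0 h arrays were the 3 highest of the 9, while those of 24 and 48 h overlapped. It fell by 0.66 ± 0.16 at 24 h (limma adjusted p = 0.0086), or 1.575-fold, and by 0.91 ± 0.16 at 48 h (0.0014), or 1.885-fold, in 3 of 3 series. From 24 to 48 h the difference was −0.26 ± 0.16 (adjusted p = 0.46).

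The dimmer SOX4 probe sets moved the same way in part. On 201418_s_at the full-length series read 177.6, 122.4 and 130, the truncated series 329.8, 150.1 and 105.2, and the untreated series 204.2, 250.9 and 88.41. On 201416_at they read 190.1, 117.9 and 78.04, then 214.3, 131.5 and 81.22, and, untreated, 168.3, 102 and 131. Both fell at 48 h, by 1.10 ± 0.30 (adjusted p = 0.039) and 1.01 ± 0.29 (0.049), and not at 24 h (adjusted p = 0.40 and 0.14). Without the full-length or truncated series the call of 201418_s_at was lost (adjusted p = 0.054 and 0.25), as was that of 201416_at (0.29 and 0.26), and without the untreated series that of 201418_s_at (0.13). Probe set 213668_s_at differed by −1.05 ± 0.40 at 24 h (0.10) and −1.14 ± 0.40 at 48 h (0.11), and lay lower in 3 of 3 series at both hours. The dimmest, 213665_at and 1567906_at, with signals of 14.86 to 63.96 and 3.085 to 52.95, had changes of 0.28 and 0.26 at 24 h and −0.59 and 0.64 at 48 h, with adjusted p of 0.63 to 0.89. The mean of all 6 probe sets gave −0.39 at 24 h (adjusted p = 0.33) and −0.69 at 48 h (0.13), so the call on SOX4 rests on its brighter probe sets. Without the full-length series the 24 h value of 201417_at was −0.50 (0.14), without the truncated series −0.63 (0.056), and both lost the call.

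SOX12, the remaining SOXC gene, was not called. On 204432_at the readings at 0, 24 and 48 h were 65.9, 71.4 and 71.53 with full-length NRSF, 36.97, 132.3 and 75.62 with the truncated form, and 89.04, 62.63 and 54.84 untreated. The highest and the lowest value were both in the truncated series. The changes were 0.48 ± 0.44 at 24 h (adjusted p = 0.56) and 0.15 ± 0.44 at 48 h (0.90), with a 95% interval of −0.77 to 1.07 at 48 h. Without the truncated series they were −0.20 (0.88) and −0.29 (0.83). On 228358_at 2 arrays were at the floor and signals ran from 4.021 to 32.61, with changes of −0.53 and 0.20.

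SOX9, the SOXE factor of neural crest and cartilage, was highest at 24 h. On 202936_s_at the readings at 0, 24 and 48 h were 347.8, 545.1 and 296.5 with full-length NRSF, 229.2, 501 and 295.6 with the truncated form, and 248.4, 456 and 410.9 untreated. All 24 h arrays lay above all other arrays. Of all probe sets tested, 13% were higher at 24 h than at 0 h without overlap. It rose by 0.88 ± 0.20 at 24 h (adjusted p = 0.0067), or 1.846-fold, in 3 of 3 series, and stood at 0.29 ± 0.20 at 48 h (0.49). From 24 to 48 h it differed by −0.60 ± 0.20 (0.14).

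The brighter SOX9 probe set differed between series. On 202935_s_at signals were 453, 752 and 458.2 with full-length NRSF and 403.5, 921.1 and 459.7 untreated, but 620.6, 518.7 and 322.5 with truncated NRSF. Over the 3 series it stood at 0.55 ± 0.22 at 24 h (adjusted p = 0.11) and −0.25 ± 0.22 at 48 h (0.60). From 24 to 48 h it differed by −0.80 ± 0.22 (0.057), lower in 3 of 3 series. Without the array of truncated NRSF at 24 h the 2 probe sets changed places. 202935_s_at was then called at 24 h with 0.79 (0.049), and 202936_s_at was not, with 0.78 (0.051). Without the whole truncated series they stood at 0.96 (0.0066) and 0.76 (0.070). The mean of both probe sets gave 0.72 (0.023), so the call at 24 h was reached by 1 of the 2 probe sets in either case.

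SOX8 and SOX10, the other SOXE genes, gave no usable signal. The only SOX8 probe set ran from 1.187 to 5.104 and was at the floor on all 9 arrays. The SOX10 probe sets ran from 1.935 to 56.5. 209843_s_at read 33.33, 7.047 and 7.215 with full-length NRSF at 0, 24 and 48 h, 25.2, 21.54 and 40.13 with the truncated form, and 2.039, 16.47 and 4.641 untreated. 209842_at read 16.41, 30.83 and 5.26 with full-length NRSF, 1.984, 56.5 and 5.818 with the truncated form, and 40.81, 1.935 and 7.521 untreated. It was at the floor on every 48 h array. Neither probe set passed the filter, so no change with hour or series was tested. No detection call was used here, so these values do not show that the genes are silent.

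SOX5 and SOX13, of the SOXD group, were not called at any hour. SOX5 on 238009_at read 106.5, 37.67 and 115.9 with full-length NRSF, 118.5, 63.34 and 85.52 with the truncated form, and 72.31, 42.37 and 62.17 untreated. The 24 h array was the lowest of each series, with a difference of −1.06 ± 0.38 from 0 h (adjusted p = 0.084) and 0.87 ± 0.38 from 24 to 48 h (0.28). At 48 h it stood at −0.19 ± 0.38 (0.85). 207336_at was scattered between 6.829 and 57.02, and the remaining SOX5 probe sets, 238285_at and 1569638_at, between 1.233 and 37.06 without passing the filter. SOX13 on 209736_at read 5.569, 102.2 and 67.97 with full-length NRSF, 61.21, 38.06 and 24.3 with the truncated form, and 56.48, 35.81 and 69.54 untreated. Its full-length 0 h array, at the floor, was the lowest of the 9, and the other two SOX13 probe sets read 43.79 and 24.31 on that array. The 3 probe sets had changes of −0.47 to 0.76 at 24 h and 0.23 to 0.67 at 48 h, with adjusted p of 0.58 to 1 at 24 h and 0.68 to 0.90 at 48 h.

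SOX2, the progenitor factor, was dim on all 4 probe sets, with signals of 1.015 to 57.54. Only 214178_s_at was tested. It read 4.817, 35.51 and 49.84 with full-length NRSF, 31.19, 29.72 and 57.54 with the truncated form, and 3.37, 7.339 and 28.43 untreated, and the 48 h array was the highest of each series. The difference at 48 h was 1.75 ± 0.74 (adjusted p = 0.20), with 3 arrays at the floor, and at 24 h 0.68 ± 0.74 (0.65). The other probe sets, 213721_at, 213722_at and 228038_at, had 2, 5 and 6 arrays at the floor.

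**Figure D2:**
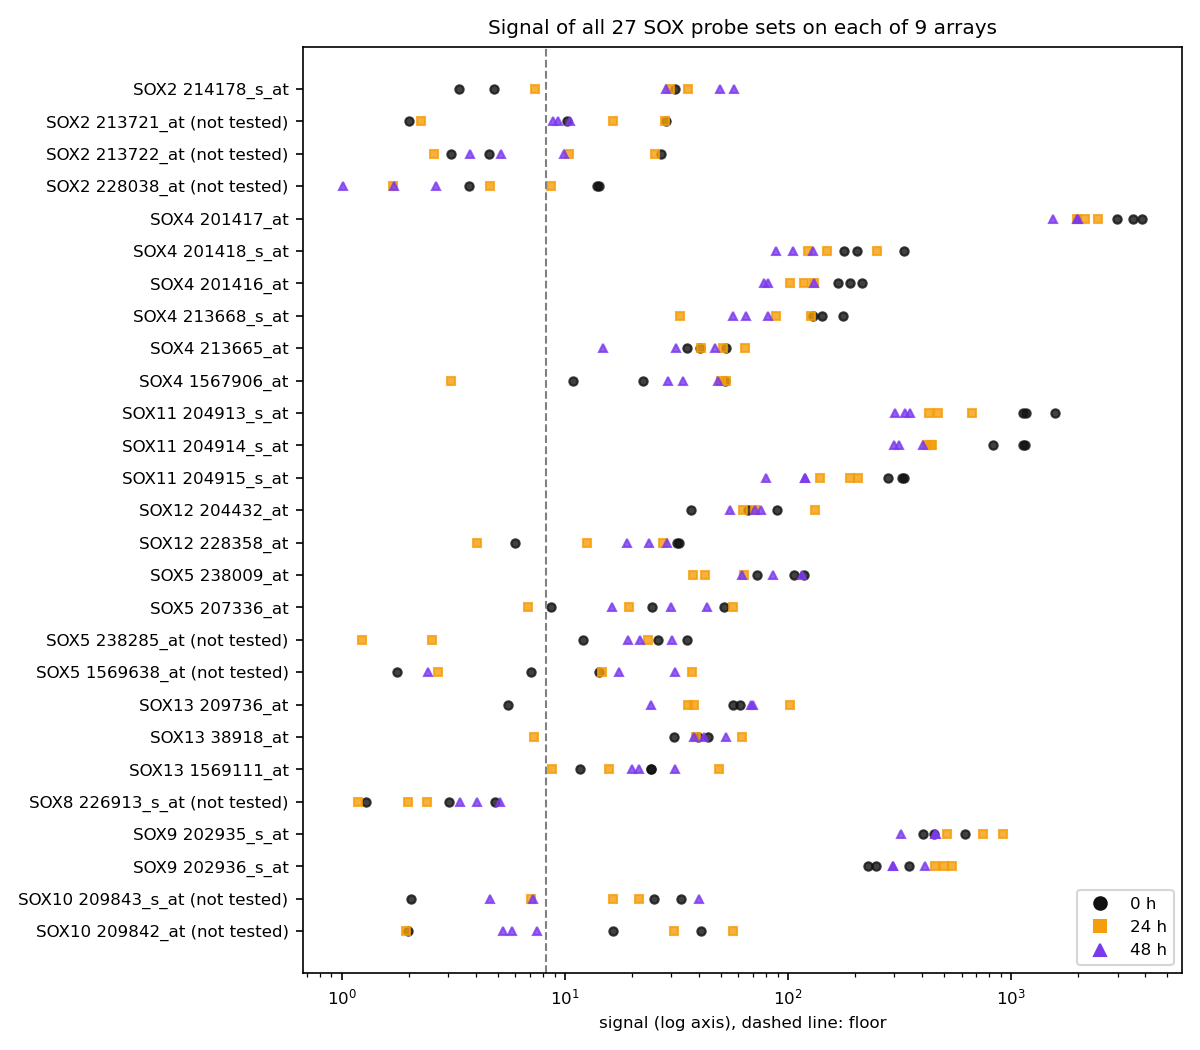
Signal of all 27 SOX probe sets on each of 9 arrays (horizontal log axis), marked by hour, with the floor of 8.266 as a dashed line. Points at 0 h lie to the right of the others for SOX11 and for SOX4 201417_at, and 13 probe sets stay above the floor on all arrays.

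Over all 19 tested probe sets, 4 fell and 1 rose at 24 h. Among all 32752 probe sets tested, 5.74% fell and 5.73% rose. At 48 h 6 fell and 0 rose, against 2.63% and 2.82% of all. From 24 to 48 h 1 fell, against 1.3%. The fallen probe sets come from SOX4 and SOX11 alone, so these are counts for 2 genes. Without overlap between the hours, 7 of the 19 were lower and 1 higher at 24 h, against 13.9% and 13% of all, and 7 were lower at 48 h, against 12.9%. The median change of the 19 was −0.46 at 24 h and −0.19 at 48 h, and that of all probe sets −0.02 and −0.03. At an unadjusted p under 0.05 there were 9 and 8 of the 19, against 23.9% and 18.8% of all probe sets. With 1 probe set for each gene, 2 of 7 genes were called at both hours, SOX4 and SOX11. Of all 13799 genes so tested, 2242 were called at 24 h and 1156 at 48 h.

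**Figure D3:**
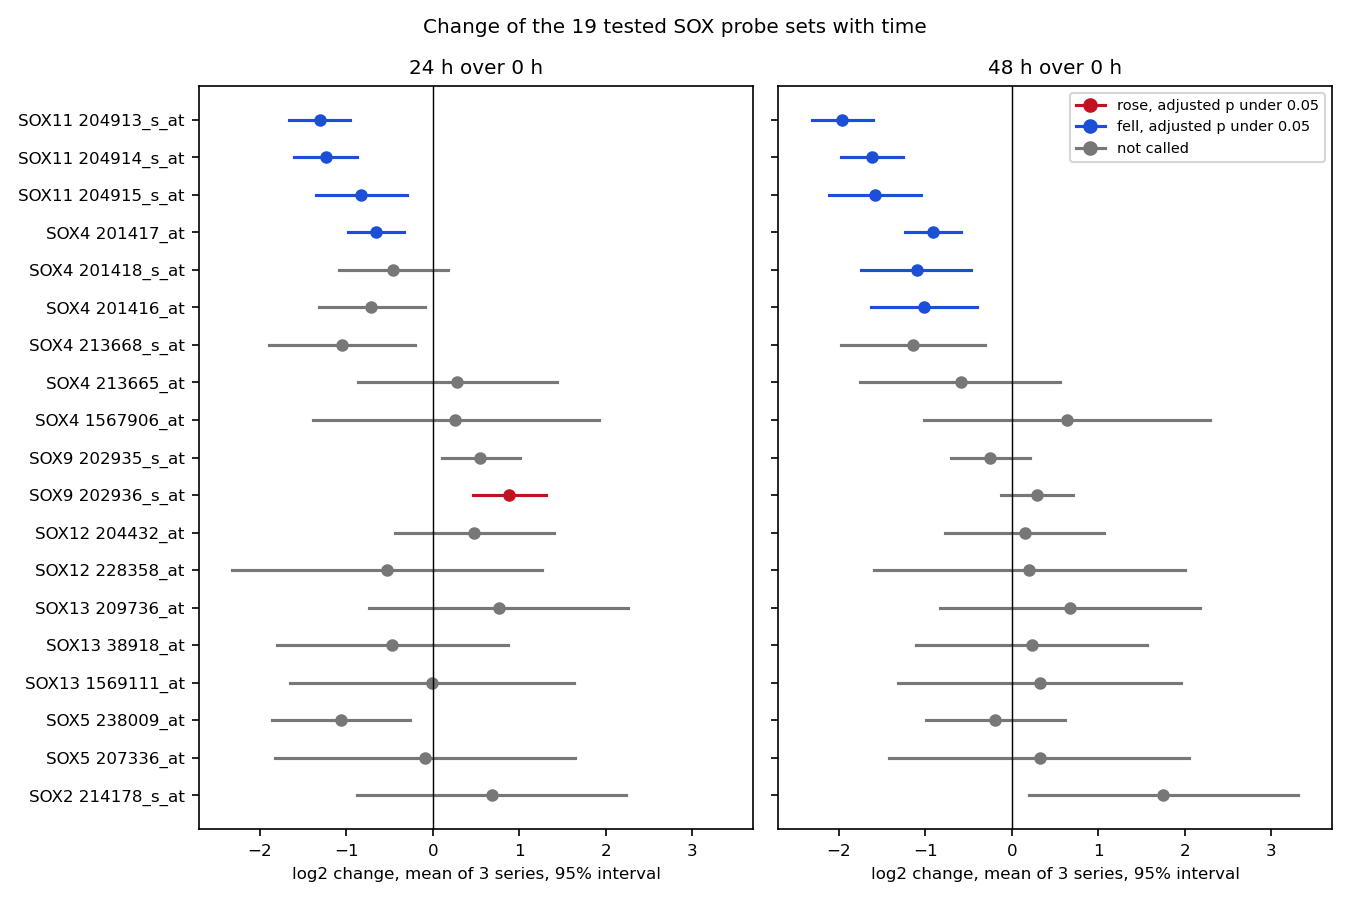
Log2 change of the 19 tested SOX probe sets at 24 and 48 h over 0 h (horizontal axis), as the limma estimate over 3 series with its 95% interval. The intervals of SOX11 lie below 0 at both hours, from −2.31 to −1.60 on 204913_s_at at 48 h, and those of the dim probe sets are several times wider.

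Counted array by array at 2-fold or more, 9 of the 19 differed from their own 0 h array at 24 h and 9 at 48 h with full-length NRSF, where 24.1% and 22.4% of all probe sets did. With truncated NRSF 11 and 10 did, against 31.3% and 22.7% of all. In untreated cells 6 and 6 did, against 22.6% and 22.7%. Between 0 h arrays 4 of the 19 differed as much for the full-length and untreated series (18.9% of all), 6 for the truncated and untreated series (17%) and 5 for the full-length and truncated series (19.6%). These single-array counts have no replicate check.

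To ask whether NRSF constructs moved SOX signal, each construct's change from 0 h was set against that of untreated cells. The sample titles do not state whether a construct was already in the cells at 0 h. Any effect present by then would be removed by this comparison. In limma, 24 and 48 h were taken as repeated readings of 1 effect, which leaves 2 residual degrees of freedom. With the variance shared across probe sets the tests and intervals used 19.8, so they rest mostly on that shared variance. None of the 19 probe sets was called for full-length NRSF net of untreated (1 at an unadjusted p under 0.05), truncated NRSF net of untreated (2) or full-length minus truncated (2). Of all probe sets 3.99%, 6.5% and 5.69% had an unadjusted p that low, and 0.0153%, 0.0366% and 0.0153% were called, so almost no gene was called in these contrasts. With 1 array per series and hour they have little power, and a missing call does not show that the series changed alike, and the intervals are given.

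SOX11 on 204913_s_at differed by −0.19 with full-length NRSF net of untreated (95% interval −0.96 to 0.58) and by −0.08 with truncated NRSF net of untreated (−0.85 to 0.68). On 204914_s_at these were −0.43 (−1.19 to 0.33) and −0.26 (−1.02 to 0.49), and on 204915_s_at 0.02 (−1.14 to 1.18) and −0.23 (−1.39 to 0.93). With the variance so shared, the first probe set's intervals lie within 2-fold of no difference, and those of the others reach beyond it. For SOX4 on 201417_at these were −0.54 (−1.19 to 0.11) and −0.52 (−1.17 to 0.13), and both intervals include 0. SOX9 on 202935_s_at stood at −0.32 (−1.06 to 0.43) and −1.29 (−2.04 to −0.55), the second with an unadjusted p of 0.0017 and an adjusted p of 0.34 over all probe sets. On the other SOX9 probe set, 202936_s_at, it was −0.59 (−1.46 to 0.28) and −0.05 (−0.93 to 0.82), and the probe sets differed. SOX12 on 204432_at stood at 2.04 (0.23 to 3.85) with truncated NRSF (unadjusted p = 0.029, adjusted p = 0.69). SOX13 on 209736_at stood at 3.51 (1.04 to 5.98) with full-length NRSF (unadjusted p = 0.0077, adjusted p = 1), a value that uses the full-length 0 h array at the floor. On 38918_at and 1569111_at SOX13 stood at 1.20 (−1.64 to 4.04) and 0.02 (−3.55 to 3.60).

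**Figure D4:**
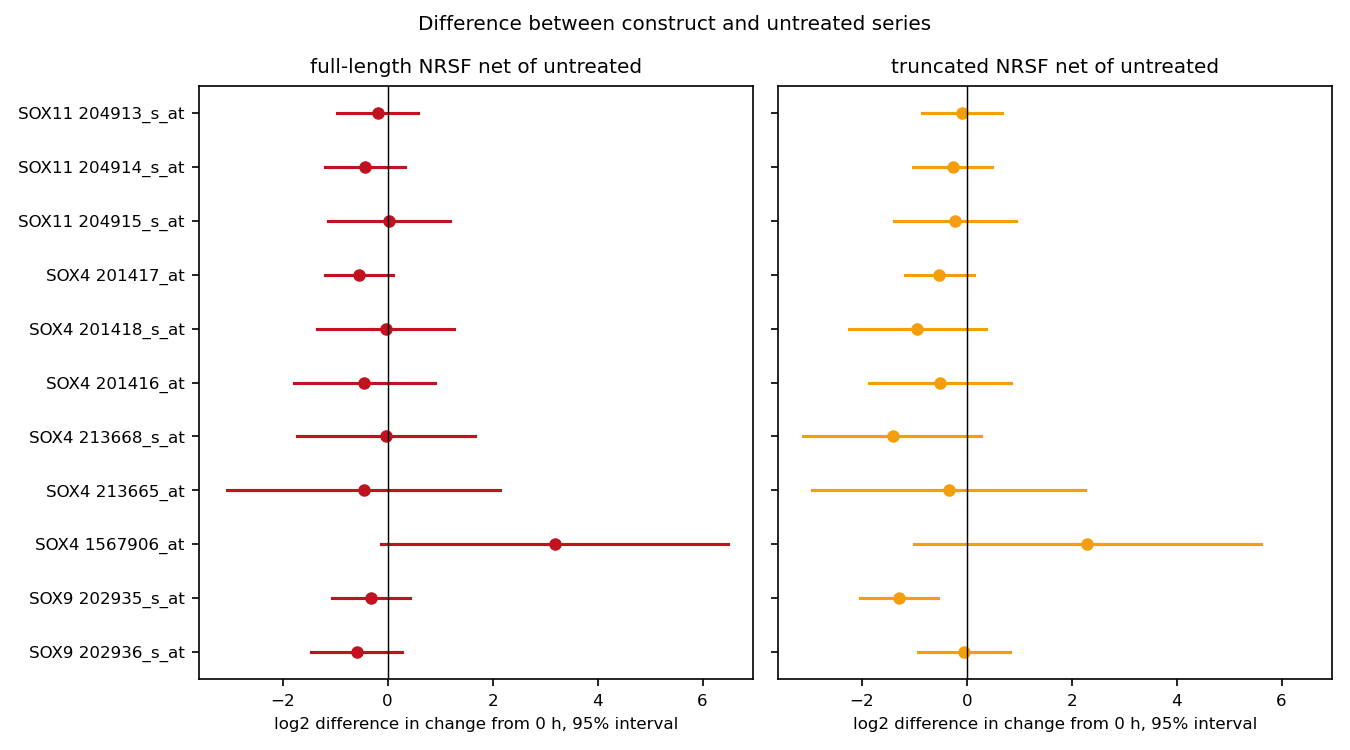
Difference in log2 change from 0 h between a construct series and the untreated series for SOX11, SOX4 and SOX9 probe sets, with 95% intervals of the limma fit. Full-length NRSF is on the left and truncated NRSF on the right, and 202935_s_at with truncated NRSF, from −2.04 to −0.55, is the only interval off 0.

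Between both constructs, SOX11 on 204913_s_at differed by −0.11 (−0.87 to 0.66) and SOX4 on 201417_at by −0.02 (−0.67 to 0.63), full-length minus truncated. SOX9 differed by 0.98 (0.23 to 1.72) on 202935_s_at and by −0.54 (−1.41 to 0.33) on 202936_s_at, with adjusted p of 0.73 and 0.95. SOX13 differed by 4.34 (1.87 to 6.81) on 209736_at (adjusted p = 0.47), again with the full-length 0 h array at the floor. On 38918_at and 1569111_at it differed by −0.69 (−3.53 to 2.15) and 1.57 (−2.01 to 5.14). On 204914_s_at SOX11 differed by −0.16 (−0.92 to 0.59). Wider intervals were found for SOX11 on 204915_s_at, from −0.91 to 1.41, and for SOX4 on 201418_s_at, from −0.40 to 2.20. On these dimmer probe sets a 2-fold difference between constructs was not bounded.

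SOX11 and SOX4 varied together on their brightest probe sets. Over the 9 arrays 204913_s_at and 201417_at had a Pearson correlation of 0.907, as a description of arrays that share the hours at which both fell. With the other SOX4 probe sets 204913_s_at correlated at 0.88 (201416_at), 0.75 (213668_s_at), 0.62 (201418_s_at), 0.31 (213665_at) and −0.23 (1567906_at). The 3 SOX11 probe sets correlated at 0.86 to 0.94 with each other. The genes most like SOX11, among 13798 others on their brightest probe sets, were LPL, the lipoprotein lipase gene (0.984), TCTN3, a gene of primary cilia (0.971), and E2F2, a gene of S phase entry (0.967). For SOX4 they were PLXNA2, a semaphorin receptor gene (0.977), CLCC1, a chloride channel gene (0.973), and UACA (0.969). Nothing on shared function is read from these values.

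Lists of genes tied to SOX factors, as targets, partners or markers of the states they act in, were examined on the brightest probe sets. Of 9 tested SOXC target and neuronal maturation genes 2 fell and 0 rose at 24 h, and 0 were called at 48 h. The medians were −0.42 and −0.17. Among all 13799 genes tested on their brightest probe sets 1003 fell and 1009 rose at 24 h. At 48 h 458 fell and 531 rose. From 24 to 48 h 2 of the 9 rose and 0 fell, where 190 rose and 222 fell among all genes. TEAD2, a Hippo pathway factor that SOXC proteins activate in mice, read 284.2, 152.8 and 263.3 with full-length NRSF at 0, 24 and 48 h, 222.2, 71.96 and 215.4 with the truncated form, and 291.5, 122.7 and 213.9 untreated. It fell by 1.26 ± 0.24 at 24 h (adjusted p = 0.0017) and rose by 1.06 ± 0.24 from 24 to 48 h (0.023). That later call was lost without the full-length (adjusted p = 0.090), truncated (0.22) or untreated series (0.079) or the truncated 24 h array (0.14). With the mean of its probe sets TEAD2 stood at −0.97 at 24 h (0.15) and 1.38 from 24 to 48 h (0.12), neither called. NEFL, the light neurofilament gene, rose by 0.73 ± 0.17 from 24 to 48 h (0.025), a call lost without the truncated (0.26) or untreated series (0.25) or the truncated 24 h array (0.17). NRP1, a semaphorin and VEGF receptor gene, fell by 0.53 ± 0.16 at 24 h (0.042) on its brightest probe set. With the mean of its probe sets it stood at −0.08 (0.88). The call was also lost when the full-length (0.12), the truncated (0.19) or the untreated series (0.075) or the truncated 24 h array (0.19) was left out. TUBB3, the neuronal tubulin gene, differed by −0.40 ± 0.14 at 24 h (0.080) and −0.39 ± 0.14 at 48 h (0.13), and STMN1, STMN2 and GAP43 were not called at 48 h, with −0.61, 0.61 and −0.59.

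Of 8 tested cartilage matrix genes of SOX9 and SOX5 none was called at 24 or 48 h, with medians of −0.04 and −0.46. HAPLN1 differed by 1.23 (adjusted p = 0.47) and the collagen gene COL27A1 by −0.92 (0.11) at 48 h, and the matrilin genes MATN3 and MATN1 by −0.80 and −0.67. Of 6 tested Schwann, glial and melanocyte genes of SOX10 none was called, with NGFR at −1.53 (0.16) and EDNRB at 0.78 (0.18) at 48 h. TYR, the tyrosinase gene, differed by −0.40 (0.88) and TFAP2A, a neural crest factor, by 0.39 (0.86). Of 4 tested partner and progenitor genes of SOX2, NES, which encodes the filament protein nestin, fell by 0.59 ± 0.14 at 48 h (0.019). The call was lost when the full-length (0.10), the truncated (0.088) or the untreated series (0.13) was left out. The mean of its probe sets gave −0.68 (0.094), which was not called. HES1, a Notch target, differed by −0.43 (0.33), POU3F3, a neural POU factor, by 0.18 (0.95) and the receptor gene NOTCH1 by 0.05 (0.97). Over all 13799 genes on their brightest probe sets 1003 fell and 1009 rose at 24 h, 458 fell and 531 rose at 48 h, and the medians were −0.03 and −0.01.

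The remaining SOX family genes were mostly dim, with 5 of 10 tested and none called. SOX15 and SOX30, factors best known from muscle and testis, differed by −1.97 (adjusted p = 0.084) and −2.07 (0.082) at 48 h. SOX6, the SOXD partner of SOX5, read 66.92 to 139.1 over the 9 arrays and differed by −0.27 (0.69) at 24 h and −0.33 (0.65) at 48 h. SOX7 and SOX17, of the endothelial SOXF group, differed by 0.54 (0.73) and 0.70 (0.72) at 48 h.

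Some markers of other cells and states changed at the hours at which SOX11 fell, in both directions. Of 11 tested mesenchymal markers 4 fell and 3 rose at 24 h, and 3 fell and 1 rose at 48 h. Among all 13799 genes 1003 fell and 1009 rose at 24 h, and 458 fell and 531 rose at 48 h. PRRX1 fell by 1.20 at 24 h (limma adjusted p = 2.9e-05) and stood at −0.02 at 48 h (0.96). FOSL1 rose by 1.56 at 24 h (3.6e-05) and stood at 0.24 at 48 h (0.58). At 48 h the matrix genes TGFBI and FN1 fell by 1.44 (adjusted p = 4.5e-05) and 1.30 (8.8e-05), TWIST1 fell by 0.58 (0.034), and SNAI2, a regulator of mesenchymal transition, rose by 0.96 (0.00074). None of 3 tested melanocyte markers and none of 8 tested sympathoadrenal markers was called, with INSM1 at 1.02 (0.53), MYCN at −0.53 (0.68), TFAP2B at −0.48 (0.49) and GATA2 at 0.39 (0.37) at 48 h. The melanocyte genes MITF and PMEL differed by 0.21 (0.78) and −0.16 (0.95). Of 2 tested epithelial markers KRT18 rose by 0.90 at 48 h (0.0017), on a probe set whose x_at suffix marks probes that may bind other transcripts. KRT8 differed by 0.06 (0.94). The probe sets read for KRT8, HBB, FN1, NOTCH2, TUBB3 and SOX15 have the x_at suffix as well. The summed signal of the 6 measured epithelial genes was 2543 to 3848 at 0 h, 3502 to 4446 at 24 h and 5668 to 6312 at 48 h, of which KRT18 alone was 2382 to 6076, while EPCAM and CDH1 did not pass the filter. Of 2 tested blood markers PTPRC rose by 1.05 (0.047), with readings of 57.78 to 175.4, and HBB differed by 0.14 (0.94). The summed signal of the 4 measured blood genes was 130.9 to 142.9 at 0 h, 150 to 216.4 at 24 h and 206.6 to 246.3 at 48 h. Their part in the SOX changes was not tested. In RNA of whole cultures, fewer cells that express a gene and less RNA per cell cannot be told apart.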

How the data were processed

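The authors deposited a linear intensity (signal) for each Affymetrix probe set on each array, and the submitters' processing notes name GCOS without settings. The 2% trimmed mean was 150.02 on every array, so this scaling was kept. Of 54675 probe sets, 62 controls were left out. Symbols came from a platform annotation, updated through Entrez ID: 41091 probe sets had 1 symbol, 1801 several and 11777 none. Signals were floored at the 25th percentile of all values and log2 was taken. Every non-control probe set above the 40th percentile of mean log2 signal was tested, named or not. Fits used lmFit and eBayes (trend on) of limma 3.58.1 in R 4.3.3. Tests were two-sided, and p-values were adjusted after Benjamini and Hochberg. The time model held series and hour (4 residual degrees of freedom), the exposure model also a term per construct at 24 and 48 h (2). Other listed genes were read on the probe set with the highest mean. Each group is 1 array, and the number of arrays limits the precision.

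The fits were tested on simulated data with known changes. Named are all probe sets of the 9 genes, REST, the 4 listed genes of each list with the largest 48 h change, and the 3 genes most correlated with a called member. NRP1, TEAD2, NEFL, SOX6, PHOX2A, GATA3, PRRX1, NOTCH2, FOSL1, TH, DBH, EPCAM and CDH1 were named after their values were seen. The members and lists were chosen with earlier results of these data known.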

Additional observations from a re-analysis of the deposited data

How the results depend on the processing

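SOX11 fell on 204913_s_at in each of 12 alternatives, by 1.13 to 1.35 at 24 h and 1.72 to 2.09 at 48 h, and kept its call in 11 of 12 at both hours. The exception was the fit without the variance trend (adjusted p = 0.059 and 0.13), which called 0 SOX probe sets at any hour and 243, 3 and 0 of all at 24 h, 48 h and from 24 to 48 h. SOX4 on 201417_at kept its call in 7 of 12 at 24 h and 9 of 12 at 48 h, and SOX9 on 202936_s_at in 6 of 10 at 24 h. SOX probe sets called at 24 h, 48 h and from 24 to 48 h numbered 5, 6 and 1. With 1 probe set per gene they were 2, 2 and 1, averaging a gene's probe sets 2, 1 and 0, where fewer features are tested, and without the filter 2, 2 and 0. With the higher floor the last was 2, and 0 with log2(signal + 16) or quantile normalization. Leaving out the full-length, truncated or untreated series gave 3, 3 and 4 at 24 h, 4, 4 and 5 at 48 h, and 0 each from 24 to 48 h. The construct contrasts called 0 SOX probe sets in every alternative run.

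Of all probe sets, 3757, 1788 and 770 were called in the 3 time contrasts. These were 2242, 1156 and 483 with 1 probe set per gene, 1213, 477 and 175 with the mean, and 1298, 98 and 0 without the filter. Without the truncated 24 h array 2235 and 270 were called at 24 h and from 24 to 48 h. Without the full-length series they were 1847, 606 and 338, without the truncated series 1996, 882 and 235, and without the untreated series 2429, 821 and 323. Calls for full-length and truncated net of untreated and full-length minus truncated numbered 5, 12 and 5. They were 1, 5 and 2 with 1 probe set per gene, 2, 3 and 0 with the 60th percentile filter, 0, 3 and 0 with the higher floor, 7 for truncated under quantile normalization, and 22, 35 and 33 without the truncated 24 h array, and 0 each with the mean, without the filter or without the trend.

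Other listed genes called numbered 2, 1 and 2. They were 0, 0 and 1 with the mean, 1, 0 and 0 without the filter, 0 each without the trend, and 2 at 48 h under quantile normalization. Without the truncated 24 h array they were 1 at 24 h and 0 from 24 to 48 h, without the full-length series 1, 0 and 1, without the truncated series 0 from 24 to 48 h, and without the untreated series 1, 0 and 0.

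Signs turned only for values that were not called. When a gene's probe sets were averaged, SOX9 at 48 h was 0.02, SOX12 at 24 h −0.02, SOX5 at 48 h 0.23, and SOX4 0.28 for full-length net of untreated and 0.51 for full-length minus truncated. Without the truncated 24 h array the last was 0.15 and SOX4 on 1567906_at at 24 h −0.24. On that probe set it was −0.71 without the full-length series and −0.23 without the truncated series. Without the full-length series SOX2 at 24 h was −0.03 and SOX13 −0.67 at 24 h and −0.52 at 48 h. Without the truncated series SOX9 on 202935_s_at at 48 h was 0.10 and SOX12 −0.20 and −0.29. The causes were not tested. The time model compared each hour with the 0 h array of its own series throughout. No analysis paired by replicate number could be made, since each group holds 1 array and the labels carry no such numbers.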
